A study of Rattus norvegicus with 6 samples.

Results

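The liver miRNA miR-122 and the liver and gut family of miR-192, miR-194 and miR-215 were followed, arm by arm, in small RNA libraries from rat plasma exosomes. The members were chosen by name as 7 mature miRNAs, and counts of 6 of them, out of the 763 mature rat miRNAs counted, were analysed. miR-215 is not analysed here. Exosomes are small vesicles that cells release and that carry RNA through the blood. Libraries came from C-exo, the exosomes of control rats without remote ischemic pre-conditioning (RIPC), and from R-exo, the exosomes of rats with RIPC, with 3 libraries in each group. RIPC consisted of 4 cycles on both hind limbs of anesthetized rats, each with 5 min of ischemia and 5 min of reperfusion, and blood was taken from the abdominal aorta of both groups under anesthesia 48 h later, the late phase of RIPC. The study used young adult male Sprague-Dawley rats, a wild-type outbred stock. Neither the labels nor the methods say whether a library holds 1 rat or a pool, so that p-values measure the spread between libraries only. Vesicles of every organ that reaches the blood are mixed in such a pellet, and no liver or gut fraction was separated.

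miR-122 is made almost only in hepatocytes, where it supports lipid metabolism, and its level in blood is a widely used sign of liver cell injury. miR-192 and miR-194 are abundant in hepatocytes, intestinal epithelium and kidney, and miR-215 is their relative in gut and kidney. They are processed from shared primary transcripts, 1 holding miR-192 with miR-194 and the other holding miR-215 with miR-194, and their transcription depends on hepatocyte nuclear factors. Each hairpin can give a 5p and a 3p strand, of which usually 1 is kept as the guide that finds target mRNAs and the other is degraded.

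The mature sequences below, from the RefSeq annotation of the rat assembly GRCr8, are shown because the members are compared by arm and by seed. The seed, bases 2 to 8 from the 5′ end, is in capitals.
rno-miR-122-5p: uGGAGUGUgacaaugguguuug
rno-miR-122-3p: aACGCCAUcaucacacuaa
rno-miR-192-5p: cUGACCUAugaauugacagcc
rno-miR-192-3p: cUGCCAGUuccauaggucacag
rno-miR-194-5p: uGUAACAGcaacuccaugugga
rno-miR-194-3p: cCAGUGGGgcugcuguuaucu
rno-miR-215: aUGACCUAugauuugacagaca

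All 7 names matched an entry. miR-192-5p and miR-215 share the seed UGACCUA, whereas miR-122-5p and miR-194-5p each have a seed of their own. Over the 21 bases that can be compared from the 5′ end, miR-192-5p and miR-215 differ at 3, written with the base of miR-192-5p first as C1A, A12U and C20A. How the authors' counting treated reads that match both is not given in the sources used here, so that the counts of miR-192-5p are uncertain to that extent. Mir192 and Mir194-2 are next to each other between Atg2a and Ehd1 in that assembly, and Mir194-1 and Mir215 are next to each other within the span of Iars2. Mir122 overlaps Mir3591, which is annotated on the opposite strand. Whether the counting used the strand is not given either, and miR-122b was listed with 0 counts in every library.

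miR-194 has a pair of stem-loops, shown here because the balance of its arms is compared between the groups. Annotated mature arms are in capitals.
Mir194-2: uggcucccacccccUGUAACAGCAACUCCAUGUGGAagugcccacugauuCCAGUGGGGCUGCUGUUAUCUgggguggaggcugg
Mir194-1: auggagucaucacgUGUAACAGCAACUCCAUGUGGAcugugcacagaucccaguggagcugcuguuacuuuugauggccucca

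The same miR-194-5p comes from both stem-loops, so that its count adds their output. miR-194-3p is annotated on Mir194-2 alone, and the closest stretch of Mir194-1 differs from it at 3 of 21 bases (G8A, U19C and C20U, with the base of miR-194-3p first and positions counted from its 5′ end).

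The libraries held between 5484209 and 7531737 counts on miRNAs, and levels are given as CPM, the count scaled to library size and, by TMM factors, to composition. The limit that a count of 0 allows, 3 counts, corresponded to between 0.369 and 0.672 CPM, and values from 1 to 3 counts are given as counted, with their counting intervals. Across all miRNAs, 404 passed a filter on low counts and were tested with the quasi-likelihood test of edgeR. The criterion for a call, an unadjusted p under 0.05 together with a change of more than 2-fold, was met by 9.41% of them, 1.98% higher and 7.43% lower in R-exo, and by this edgeR test 0 had an adjusted p under 0.05, with 38 under 0.05 unadjusted. DESeq2 also called 0 at an adjusted p under 0.05. C-exo replicate 3 stood apart: without it, 182 of 422 miRNAs met the criterion and 132 (31.3%) had an adjusted p under 0.05. The fold changes and ratios of the members that it moved most are given with and without it.

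The guide strands miR-122-5p and miR-192-5p were among the most abundant miRNAs of the exosomes, miR-194-5p was far lower, and the passenger strands were at the edge of detection. miR-122-5p ranked between 3 and 13 of all miRNAs in the 6 libraries, miR-192-5p between 4 and 8, and miR-194-5p between 63 and 126. No call was made for the 3 tested members with all libraries, and miR-192-5p was the steadiest of them. The 3 passenger strands, miR-122-3p, miR-192-3p and miR-194-3p, did not pass the filter, and of these miR-194-3p was lower in every R-exo library than in every C-exo library. A level in plasma exosomes does not tell fewer vesicles of a tissue from less of a miRNA in each vesicle.

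rno-miR-122-5p had 28296, 56894 and 67051 CPM in C-exo replicates 1, 2 and 3. In R-exo replicates 1, 2 and 3 it had 35624, 28771 and 32798 CPM. C-exo replicates 2 and 3 were above every R-exo library, but C-exo replicate 1 was below them all, so that the groups overlapped. The mean was 50747 ± 20095 CPM in C-exo and 32398 ± 3444 CPM in R-exo (SD, n = 3 each). The log2 fold change of R-exo over C-exo was -0.65 (standard error 0.42, 95% interval -1.59 to 0.30), with an unadjusted p of 0.16 and an adjusted p of 0.51 by the edgeR quasi-likelihood test. The exact two-sided permutation test of log2 CPM gave p = 0.4, where 0.1 is the smallest that 3 against 3 allows. The log2 fold change was -0.98 without C-exo replicate 1 (unadjusted p = 0.025 and adjusted p = 0.81 by the edgeR quasi-likelihood test), a fit in which 3.76% of all tested miRNAs had an unadjusted p under 0.05. Without C-exo replicate 3 it was -0.38 (adjusted p = 0.42 in the edgeR test). C-exo replicate 1 was also the lowest library for miR-122-5p when counts were scaled to library size alone, at 23019 CPM against 28698 CPM in the lowest R-exo library.

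rno-miR-192-5p had 51291, 47289 and 40972 CPM in the C-exo libraries. Its R-exo values of 45030, 46433 and 46927 CPM all lay within that range. The means of 46518 ± 5203 CPM in C-exo and 46130 ± 984 CPM in R-exo (SD, n = 3 each) differed by less than the spread of C-exo. The log2 fold change was -0.01 (standard error 0.35, 95% interval -0.79 to 0.76, adjusted p = 0.99 by the same edgeR test), and its sign changed with the scaling. The SD of its log2 CPM was 0.03 within R-exo and 0.16 within C-exo, against medians of 0.39 and 0.81 over the 404 tested miRNAs. With this TMM scaling, no tested miRNA had a lower SD within R-exo, and 3.71% had a lower one within C-exo. For miR-122-5p the SDs were 0.16 in R-exo and 0.66 in C-exo. The small SDs of miR-192-5p depend on the scaling. Without TMM factors, its share of all counts ranged from 4.63% to 5.20% among R-exo libraries, a wider spread. Among C-exo libraries that share ranged from 3.82% to 5.26%. Its place among all tested miRNAs was not computed without TMM factors.

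rno-miR-194-5p, which shares 1 transcript with miR-192 and another with miR-215, was less steady than miR-192-5p. The SD of its log2 CPM was 0.46 within R-exo and 1.17 within C-exo. The medians over all tested miRNAs were 0.39 and 0.81. Its C-exo libraries had 286, 323 and 1235 CPM, against 657, 1240 and 824 CPM for R-exo. C-exo replicates 1 and 2 were below every R-exo library, and C-exo replicate 3 was level with the highest. The mean was 615 ± 537 CPM in C-exo and 907 ± 300.5 CPM in R-exo (SD, n = 3 each), and its log2 fold change was 0.56 (95% interval -0.84 to 1.96, standard error 0.62, adjusted p = 0.65 by the edgeR test). Without C-exo replicate 3 it rose to 1.58 (edgeR quasi-likelihood test, standard error 0.44, adjusted p = 0.018), where 17.3% of all tested miRNAs were also called higher in R-exo at a fold change over 2 and an adjusted p under 0.05. Without C-exo replicate 1 it was 0.22, without C-exo replicate 2 it was 0.30 and without R-exo replicate 2 it was 0.31.

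**Figure D1:**
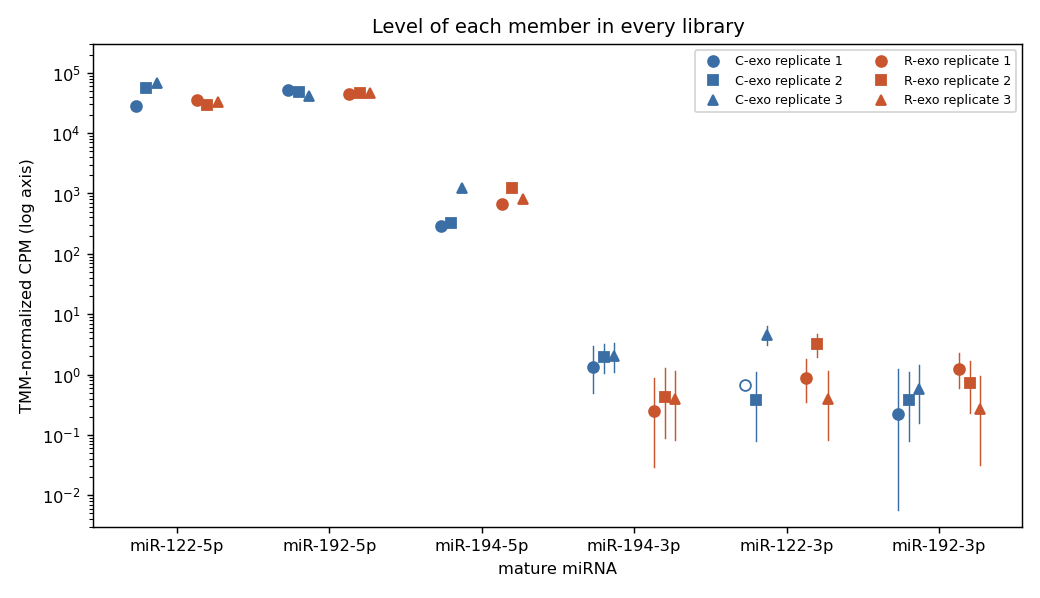
TMM-normalized CPM (log axis) of each analysed member in the 3 C-exo and 3 R-exo libraries, with vertical lines for the 95% Poisson counting interval. The open circle is the 0 count of miR-122-3p in C-exo replicate 1, drawn at the level of 3 counts (0.672 CPM). miR-122-5p and miR-192-5p lie between 28296 and 67051 CPM in all libraries, and the 3p arms lie under 5 CPM, where miR-194-3p has no overlap between the groups.

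**Figure D2:**
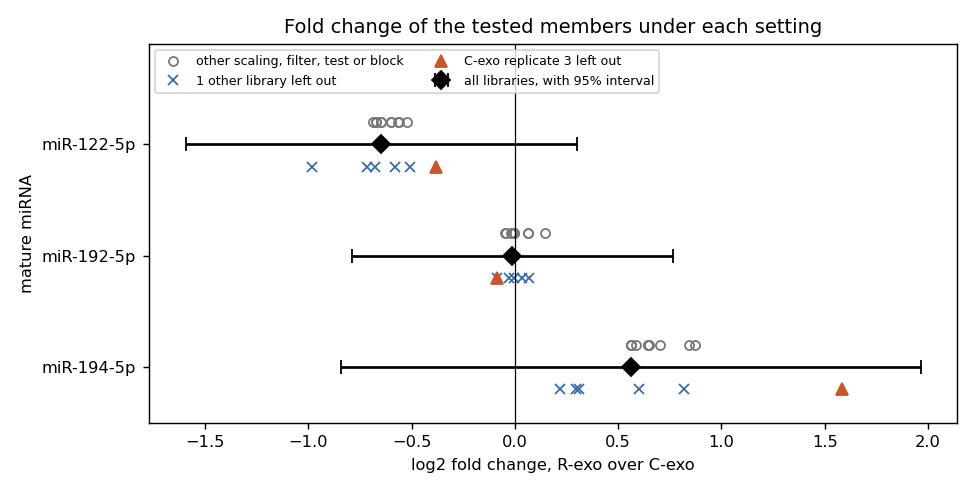
Log2 fold change of R-exo over C-exo for the 3 tested members, with the fit on all libraries and its 95% interval (diamonds), the other scalings, filters and tests and the replicate block (open circles), and the fits that leave out 1 library (crosses, with C-exo replicate 3 as a triangle). miR-122-5p lies below 0 and miR-194-5p above 0 in every fit, miR-192-5p lies on both sides of 0, and miR-194-5p moves to 1.58 without C-exo replicate 3.

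The passenger strands were rare. rno-miR-122-3p had 0, 3 and 32 counts in C-exo and 7, 22 and 3 counts in R-exo. The groups overlapped widely, and the rate of R-exo over C-exo, by total counts, was 0.857 with an exact 95% counting interval of 0.514 to 1.42. Most of the C-exo counts were those of replicate 3. The mean log2 CPM differed in the other direction, by 0.51 (R-exo minus C-exo), and by 1.67 without C-exo replicate 3. rno-miR-192-3p had 1, 3 and 4 counts in C-exo and 10, 5 and 2 in R-exo, a rate ratio of 1.99 with an interval of 0.814 to 5.33. Its mean log2 CPM differed by 0.51 (R-exo minus C-exo). With 1 library left out this was 0.16 to 0.90, the lowest without R-exo replicate 1, which held most of the R-exo counts. Both counting intervals included a ratio of 1.

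rno-miR-194-3p had 6, 15 and 14 counts in C-exo and 2, 3 and 3 counts in R-exo. In CPM these were 1.34, 1.92 and 1.99 against 0.246, 0.431 and 0.396. The 95% Poisson counting intervals were 0.494 to 2.93, 1.07 to 3.17 and 1.09 to 3.34 CPM in C-exo. They were 0.0298 to 0.890, 0.0888 to 1.26 and 0.0816 to 1.16 CPM in R-exo. The interval of C-exo replicate 1 thus overlapped those of all R-exo libraries. Every R-exo library was below every C-exo library, a pattern that 5.62% of the 89 miRNAs under the filter with at least 15 counts in all showed in this direction. It entered that set through its C-exo counts (35, against 8 in R-exo), so that nothing is read from this share. The rate ratio of R-exo over C-exo was 0.214, with an exact 95% counting interval of 0.086 to 0.470. This interval covers counting error only, and the exact two-sided permutation p of log2 CPM was 0.1, the smallest possible. The mean log2 CPM, with a prior count of 2, differed by -1.66 (R-exo minus C-exo), and the fit without a filter on low counts gave -2.28 on the log2 scale (standard error 1.07, unadjusted p = 0.042 and adjusted p = 0.44 by the edgeR test). That fit called 6.02% of 598 miRNAs lower in R-exo by the criterion, and the fitted change of so few counts depends on the prior count.

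The counts of the 5p arm were far above those of the 3p arm for miR-122, miR-192 and miR-194, by most in miR-192 and miR-122. For miR-194 the 5p count adds both stem-loops, so that the balance within either one cannot be told apart. The 3p arm held between 0.000437% (1 count, exact 95% interval 1.11e-05% to 0.00243%) and 0.00273% of the counts of miR-192, and up to 0.0110% of those of miR-122, with 0 of 126242 counts in C-exo replicate 1, which allows a share of up to 0.00238% by the limit of 3 counts and 0.00292% by the exact 95% limit. Among 149 stems with at least 15 counts on each arm, the mean log2 ratio of 5p to 3p ranked 1 for miR-192 (16.32), 3 for miR-122 (15.53) and 11 for miR-194 (9.55), against a median of -0.51. The 3p share of the counts of miR-194 was 0.468%, 0.591% and 0.161% in C-exo, and 0.0375%, 0.0347% and 0.0480% in R-exo. The exact (Clopper-Pearson) 95% intervals were 0.172% to 1.02%, 0.331% to 0.973% and 0.0881% to 0.270% in C-exo. They were 0.00454% to 0.135%, 0.00716% to 0.101% and 0.00990% to 0.140% in R-exo. All C-exo shares were thus above all R-exo shares, although the interval of C-exo replicate 3 overlapped those of R-exo.

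The log2 ratio of miR-194-5p to miR-194-3p, with 0.5 added to each count, was 8.06 ± 1.02 in C-exo and 11.04 ± 0.23 in R-exo (SD, n = 3 each), a difference of 2.98 (exact two-sided permutation p = 0.1, adjusted p = 0.3 over the 6 ratios tested). The 5p to 3p ratio did not overlap between groups in 14.1% of the 149 stems, and in 5.37% it was higher in R-exo. miR-194-3p reached the 15 counts through C-exo, where it is high (35 counts against 8 in R-exo), so that nothing is read from these shares. The difference was 3.56 without C-exo replicate 3, and it rests on 3p counts of 3 or fewer in each R-exo library. With the single count below 3, that of R-exo replicate 1, raised to 3, a setting chosen after seeing the data, it was 2.82. For miR-122 the 5p to 3p log2 ratio differed by -1.42 between groups and for miR-192 by -0.61 (exact two-sided permutation p = 0.4 for both), and the groups overlapped. Without C-exo replicate 3 these were -2.63 and -0.94, and with counts under 3 raised to 3 they were -0.48 and -0.36.

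Ratios between members within a library do not depend on the scaling. miR-122-5p was 0.552, 1.20 and 1.64 times miR-192-5p in the C-exo libraries, and 0.791, 0.620 and 0.699 times in the R-exo libraries. The order of the most abundant pair therefore varied within C-exo, whereas miR-192-5p was above miR-122-5p in each R-exo library. The log2 ratio was 0.04 ± 0.81 in C-exo and -0.52 ± 0.18 in R-exo (SD, n = 3 each), a difference of -0.55 that was smaller than the spread within C-exo (exact two-sided permutation p = 0.4, adjusted p = 0.4). It was -0.22 without C-exo replicate 3 and -1.004 without C-exo replicate 1. A different response of the liver-specific miR-122-5p and of miR-192-5p was therefore not shown.

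The ratio to miR-194-5p did not overlap between the groups for miR-122-5p, but did for miR-192-5p. Of the 403 other tested miRNAs, 4.47% had a ratio to miR-194-5p that was lower in every R-exo library. miR-122-5p was 98.9, 176 and 54.3 times miR-194-5p in C-exo and 54.2, 23.2 and 39.8 times in R-exo, where the nearest libraries, C-exo replicate 3 and R-exo replicate 1, were almost equal. The log2 ratio differed by -1.41 (6.62 ± 0.85 in C-exo, 5.20 ± 0.62 in R-exo, SD, n = 3 each, exact two-sided permutation p = 0.1, adjusted p = 0.3), and by -1.84 without C-exo replicate 3. miR-192-5p was 179, 146 and 33.2 times miR-194-5p in C-exo and 68.6, 37.4 and 56.9 times in R-exo, so that the ratio of these neighbours in the genome spread more within C-exo than between the groups (log2 difference -0.86, exact two-sided permutation p = 0.4). That difference was -1.62 without C-exo replicate 3 and -0.40 without C-exo replicate 1. Adaptors join miRNAs of different sequence with different efficiency, which was not measured, so that these ratios compare libraries rather than molecules.

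**Figure D3:**
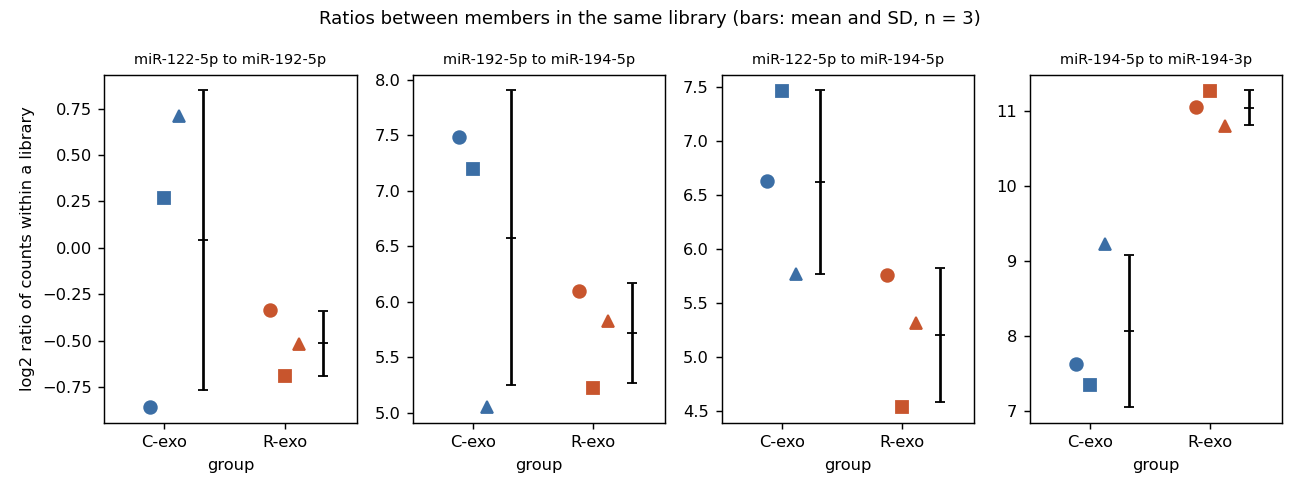
Log2 ratio of the counts of a pair of members in the same library, with 0.5 added to each count, for C-exo and R-exo (circles, squares and triangles are replicates 1, 2 and 3, bars are mean and SD, n = 3). The groups overlap for miR-122-5p to miR-192-5p and for miR-192-5p to miR-194-5p, nearly touch for miR-122-5p to miR-194-5p, and are apart for miR-194-5p to miR-194-3p (8.06 against 11.04).

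Other miRNAs of liver and of epithelia were read beside the members. Of 8 miRNAs expressed in hepatocytes 7 were tested and 0 met the criterion in either direction, with 4 above 0 and a median log2 fold change of 0.01 against -0.05 over all tested miRNAs. miR-148a-3p, the most abundant of them, measured 63765, 47965 and 123592 CPM for C-exo against 77982, 87227 and 71501 CPM for R-exo, a log2 fold change of 0.01. The other tested miRNAs of this list had log2 fold changes between -0.53 (miR-455-5p) and 0.60 (miR-101a-3p), each with an adjusted p of 0.55 or more in the edgeR fit. miR-802-5p, which is also made in liver, had at most 2.73 CPM.

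Of 6 miRNAs expressed in gut and other epithelia, all were tested and 0 met the criterion. The median log2 fold change was 0.95, against -0.05 over all tested miRNAs, with 5 above 0. Those 5 are all of the miR-200 family, so that they are not separate signs of epithelia. The remaining member, miR-31a-5p, had -0.22. The most abundant, miR-200a-3p of the epithelial miR-200 family, measured 427, 373 and 1309 CPM for C-exo against 1117, 1790 and 1345 CPM for R-exo (log2 fold change 1.01, adjusted p = 0.50 in the edgeR fit). As with miR-194-5p, C-exo replicates 1 and 2 were low and C-exo replicate 3 lay among the R-exo libraries. miR-200b-3p had a log2 fold change of 0.67 (adjusted p = 0.51 in the edgeR test).

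Blood cell miRNAs also differed between libraries. The summed level of 4 miRNAs of platelets and leukocytes was between 3553 and 21387 CPM in C-exo and between 11449 and 26861 CPM in R-exo, and miR-142-5p was its largest member in each library. The libraries highest in miR-194-5p, C-exo replicate 3 and R-exo replicate 2, held 18751 and 24670 CPM of miR-142-5p, against 2321 to 9243 CPM in the others. miR-150-5p was also highest in C-exo replicate 3, at 1833 CPM, but had 1270 CPM in R-exo replicate 2 against 1347 CPM in R-exo replicate 1. The remaining members did not follow miR-142-5p: miR-142-3p had 359 and 533 CPM in those 2 libraries and 301 to 965 CPM in the rest, and miR-223-3p had 444 and 388 CPM against 334 to 793 CPM. The summed level of 5 red cell miRNAs was between 69917 and 198183 CPM in C-exo and between 44968 and 75820 CPM in R-exo, and 2 of the 5, miR-144-3p and miR-144-5p, met the criterion as higher in R-exo (1.98% over all tested miRNAs, adjusted p = 0.46 for both in the edgeR fit). They are the arms of 1 hairpin. The red cell sum was mostly miR-486, with 195813 CPM in C-exo replicate 1, the library lowest in miR-122-5p, and 40879 to 89951 CPM in the other libraries. miR-486 had a log2 fold change of -1.07 (unadjusted p = 0.052 and adjusted p = 0.47 by the edgeR test). The log2 ratio of miR-451-5p to miR-23a-3p, used as a sign of haemolysis, did not separate the groups. It was -0.36, -0.22 and 0.56 in C-exo and -0.79, 0.88 and -0.82 in R-exo. The ratio was above 0 only in C-exo replicate 3 and R-exo replicate 2, the libraries highest in miR-194-5p. miR-451-5p was also highest in these, at 4600 and 6239 CPM against 2023 to 3165 CPM in the others. So was miR-16-5p, at 638 and 854 CPM against 73.5 to 629 CPM. miR-144-3p, miR-144-5p and miR-486 were not highest in both. Of the other lists, striated muscle had 0 of 7 called, with sums of 2151 to 9821 CPM for C-exo and 1805 to 5972 CPM for R-exo. The endothelial pair had 1 of 2 called higher, miR-126a-3p (sums, C-exo 4723 to 16773 CPM, R-exo 20587 to 30334 CPM), and pancreas had 1 of 2 tested called higher, miR-217-5p (sums, C-exo 2341 to 5357 CPM, R-exo 1675 to 3046 CPM). Both had an adjusted p of 0.46 in the edgeR fit. miR-217-5p had 125 CPM in R-exo replicate 2, but its 19.8 and 10.4 CPM in R-exo replicates 1 and 3 were near or within the C-exo range of 5.38 to 19.3 CPM. The pancreas sums were nearly all miR-375-3p, which had a log2 fold change of -0.71 (adjusted p = 0.51 in the edgeR test). Among the listed markers, miR-802-5p and miR-216a-5p were at 0 in C-exo replicates 1 and 2, and miR-216b-5p and miR-208a-3p in C-exo replicate 1. The part of these cell types in the levels of the members was not tested.

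**Figure D4:**
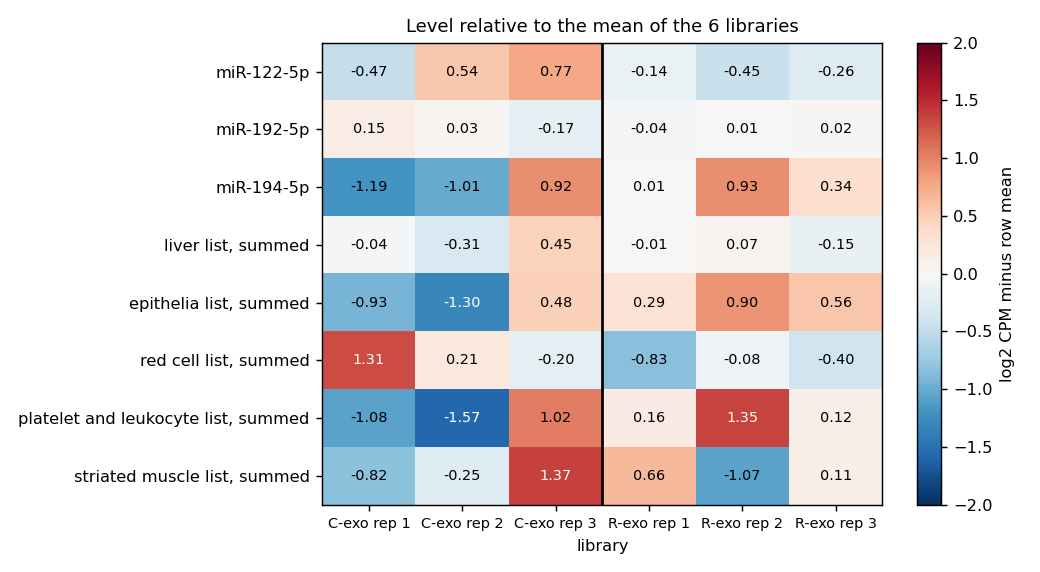
Log2 CPM of the tested members and of 5 summed marker lists in each library, relative to the mean of the 6 libraries in each row (red above, blue below). miR-192-5p stays within -0.17 and 0.15 in all libraries. miR-194-5p is at -1.19 and -1.01 in C-exo replicates 1 and 2 and at 0.92 in C-exo replicate 3. In 4 of the 5 summed lists the highest C-exo value is also in replicate 3, with values below 0 in replicates 1 and 2. These are liver (-0.04, -0.31 and 0.45 in replicates 1, 2 and 3), epithelia (-0.93, -1.30 and 0.48), platelets and leukocytes (-1.08, -1.57 and 1.02) and striated muscle (-0.82, -0.25 and 1.37). The red cell list runs the other way in C-exo (1.31, 0.21 and -0.20). The sums hide members that differ from them. Of the C-exo libraries, replicate 3 was the lowest for miR-22-3p of the liver list. It was also the lowest for miR-133a-3p and miR-133b-3p of the muscle list.

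The profiles of the abundant guides over the 6 libraries were compared with those of all other tested miRNAs by the root mean square difference of centred log2 CPM. Nearest to miR-192-5p were miR-24-3p (0.11), let-7i-3p (0.12), miR-20b-3p (0.14), miR-3586-3p (0.15) and miR-222-3p (0.17), against a median of 0.66. Those nearest to miR-122-5p were miR-6216 (0.29), miR-99b-5p (0.33), miR-338-5p (0.33), miR-148b-3p (0.34) and miR-224-5p (0.36), against a median of 0.85. The difference between miR-122-5p and miR-192-5p was 0.55. Of the 403 other miRNAs, 44 were closer to miR-122-5p than miR-192-5p was. From the other side, 142 of 403 were closer to miR-192-5p than miR-122-5p was. miR-194-5p lay further from both, at 0.93 from miR-122-5p and 0.92 from miR-192-5p. Of the 403 others, 243 were closer to miR-122-5p and 301 were closer to miR-192-5p.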

How the data were processed

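Small RNA from plasma exosomes of 3 C-exo and 3 R-exo samples was sequenced by Illumina HiSeq. Raw counts were deposited by the authors for each mature miRNA in each library, without normalization. The submitters' processing notes name bcl2fastq, BWA and the build rn6, without versions. Trimming, the miRNA database, mismatches, strand and the treatment of reads with several matches are not given in the sources used here, and can move reads between similar miRNAs.

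Groups and replicate numbers came from the sample labels. Counts were fitted with edgeR 4.0.16 in R 4.3.3, as filterByExpr by group (minimum count 10, minimum total 15), TMM factors, and the quasi-likelihood test on condition alone, with p-values adjusted over 404 miRNAs by Benjamini-Hochberg. Log2 CPM used a prior count of 2. Standard errors came from the fold change and its F statistic, and 95% intervals from the moderated degrees of freedom. Ratios within a library used counts plus 0.5 and an exact two-sided permutation test. Counting intervals cover counting error only, since PCR copies cannot be told from separate molecules here.

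The alternatives were RLE, library-size and upper quartile scaling, no filter, a minimum of 10 counts per library, DESeq2 1.42.0, limma-voom (limma 3.58.1), edgeR's exact test, a robust fit, the replicate number as a block, and each library left out. The named miRNAs were all members, the lists of liver, epithelial and blood, muscle, pancreas and endothelial miRNAs, the most abundant of the liver and epithelial lists, and the 5 tested miRNAs with profiles nearest to miR-122-5p and to miR-192-5p. Members and lists were chosen with earlier results of these data known. The fit was tested on simulated counts with known changes. Figures used Python 3.11.15 and matplotlib 3.10.9.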

Additional observations from a re-analysis of the deposited data

How the results depend on the processing

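miR-122-5p was lower and miR-194-5p higher in R-exo under all 10 alternatives that kept every library, with log2 fold changes of -0.69 to -0.52 and 0.56 to 0.87, and the adjusted p was 0.44 or more throughout (edgeR, DESeq2 or limma). Leaving out 1 library gave -0.98 to -0.38 and 0.22 to 1.58, the last without C-exo replicate 3. miR-192-5p had no stable sign: it was above 0 with RLE factors (0.061), library size alone (0.15) and DESeq2 (0.061), and between -0.089 and 0.070 with 1 library left out. Library size alone also moved the median of all tested miRNAs from -0.05 to 0.10. The difference of miR-122-3p in log2 CPM was 0.51, but -0.17 in the fit without a filter and -0.37 to 1.67 with 1 library left out. The cause was not tested. The ratios were recomputed with 1 count added instead of 0.5, with TMM log2 CPM in place of counts, and with the replicate block. Each library was also left out, and for the arm ratios counts under 3 were raised to 3. All 6 ratios kept their direction in these settings, but not their size. With 1 library left out the log2 difference was -1.004 to -0.22 for miR-122-5p to miR-192-5p, -1.84 to -0.99 for miR-122-5p to miR-194-5p, -1.62 to -0.40 for miR-192-5p to miR-194-5p, -2.63 to -0.57 for the arms of miR-122, -1.16 to -0.14 for those of miR-192 and 2.62 to 3.56 for those of miR-194.

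The criterion called 38 miRNAs, 63 without a filter, and 15 to 182 with 1 library left out. With library size alone 18 of 33 calls were higher in R-exo, against 8 of 38 with TMM, 25 of 38 with the replicate block, 27 of 49 with limma-voom and 17 of 49 with DESeq2. The replicate numbers are shared by different rats. The deviations of same-numbered libraries correlated at 0.33, -0.28 and 0.28. They were centred within groups of 3, so that these values cannot decide whether same-numbered libraries were handled together. The replicate block gave -0.57 for miR-122-5p and 0.87 for miR-194-5p and changed no call of a member. The 3p arms had 0 to 32 counts in a library, and the counts of miR-122-3p in C-exo (0, 3 and 32) spread beyond their counting intervals.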
